A study of Mus musculus with 6 samples.

Results

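The genes described here are 34 activity-regulated immediate early genes, taken by symbol from a fixed list of transcription factors, synaptic effectors and feedback genes. They are 34 of the 55471 genes in the deposited count table, and all 34 passed the filter on low counts which kept 16562 genes for testing. Both groups were primary cortical neurons from CD1 mouse embryos of embryonic day 14.5 to 15, grown with 2 uM cytosine arabinoside (Ara-C, which kills dividing cells), given lentivirus on day 6 of culture and harvested on day 11. The control group (shControl, genotype label WT) received a control short hairpin RNA. The knockdown group (shOpa1, genotype label Opa1 knock-down) received one against Opa1, a GTPase of the inner mitochondrial membrane. Each group held 3 libraries, described as biological replicates without saying which cultures they came from, so the p-values cover no more than the spread among these libraries. The labels name no stimulation of either group before harvest. The comparison asks how transcript levels differ when Opa1 is knocked down, and each same-numbered pair of libraries is given because the libraries numbered 3 differed from those numbered 1 and 2.

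Immediate early genes are transcribed within minutes of synaptic input, without new protein synthesis. Calcium entering through NMDA receptors and voltage-gated channels activates CREB, and MAP kinase signalling activates SRF and its partners, and these factors sit on the promoters beforehand. The first wave encodes transcription factors of the AP-1, EGR and NR4A families, synaptic proteins such as Arc and BDNF, and phosphatases that switch the same signalling off again. In cultured cortical neurons they are standard readouts of firing and calcium entry, and several also respond to growth factors and to stress.

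Promoters of 5 members that rose or that differed between pairs are shown because they hold sites this regulation is known to use. Those of Gadd45a, Gadd45b and Gadd45g, which were also listed, held none of the 3 motifs and are not shown. Further members whose promoters held a site, among them Bdnf, which rose as well, are not shown either. Sequences are from RefSeq on GRCm38.p6, 100 bases each, read 5′ to 3′ on the gene's own strand. Capitals mark the CREB site TGACGTCA or its core TGACG on either strand (CGTCA on the other), and in Dusp5 also the SRF site called a CArG box. Some genes have several starts, and 1 is shown.
Fosb: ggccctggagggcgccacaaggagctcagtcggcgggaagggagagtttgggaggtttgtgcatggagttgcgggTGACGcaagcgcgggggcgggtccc
Nr4a1: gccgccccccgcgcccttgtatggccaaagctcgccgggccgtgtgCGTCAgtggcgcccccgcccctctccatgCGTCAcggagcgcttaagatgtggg
Btg2: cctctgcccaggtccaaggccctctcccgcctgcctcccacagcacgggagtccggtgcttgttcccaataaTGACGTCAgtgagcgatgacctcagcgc
Dusp5: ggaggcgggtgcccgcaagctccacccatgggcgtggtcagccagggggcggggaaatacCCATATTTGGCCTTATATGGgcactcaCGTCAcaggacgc
Dusp1: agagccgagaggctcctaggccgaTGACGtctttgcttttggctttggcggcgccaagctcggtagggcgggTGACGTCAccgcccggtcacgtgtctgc

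These stretches lie at chr7:19310081-19310180 for Fosb (minus strand), chr15:101266731-101266830 for Nr4a1 (plus), chr1:134079294-134079393 for Btg2 (minus), chr19:53529003-53529102 for Dusp5 (plus) and chr17:26508588-26508687 for Dusp1 (minus). Promoters running from 250 bases before to 50 after a start were listed for 25 of the 34 genes, and Egr1, Egr3, Klf10, Crem, Arc, Nptx2, Dusp4, Sik1 and Ier2 were not among them. The core TGACG, searched on both strands, was found in 16 of the 25 (64.0%) and in 23.0% of 27025 genes with a listed promoter. The complete palindrome TGACGTCA, which contains the core on both strands, was found in 3 of the 25, namely Btg2, Dusp1 and Maff, and in 2.03% of all genes. A CArG box was found in 2 of the 25, Egr2 and Dusp5, and in 1.81% of all genes. These shares count genes, and a gene may have several listed promoters. The 25 members had 38 and the 27025 genes had 32851, so more sequence per gene was searched for the members. The members were chosen as known targets of these pathways, and a match is only a description of the letters in the window.

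Fosb, Nr4a1, Bdnf, Nptx2, Btg2, Dusp5, Gadd45a and Gadd45b rose in shOpa1 over all 6 libraries. They are 8 of the 34 genes (18.9% of all tested genes were called higher), and 0 of the 34 fell, against 20.0% of all genes (edgeR quasi-likelihood test, adjusted p under 0.05). At an unadjusted p under 0.05, edgeR also found 0 of the 34 lower. At an adjusted p under 0.05, DESeq2 called 11 higher, against 17.5% of all genes, and 0 lower. With the replicate number as a block, which compares libraries within pairs, 17 of the 34 rose against 28.8% of all genes, and 3 fell against 30.7%. Over pairs 1 and 2 alone, 23 rose against 24.8% of all genes, and 2 fell against 26.1%. That fit leaves out the pair already known to stand apart. Its p-values, here and below, cover only the spread among the libraries numbered 1 and 2. The 3 shOpa1 libraries lay above all 3 shControl libraries for 7 of the 34 genes, a share below the 25.8% of all genes for which this held. They lay below for 0 of the 34, against 26.0% of all genes. The median log2 fold change of the 34 genes was 0.56, and that of all tested genes was -0.01. Without shControl replicate 1 or 2, or without shOpa1 replicate 1 or 2, the number of risen members was 5, against 12.8% to 13.7% of all genes. Without shOpa1 replicate 3 it was 17, against 18.7%.

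**Figure D1:**
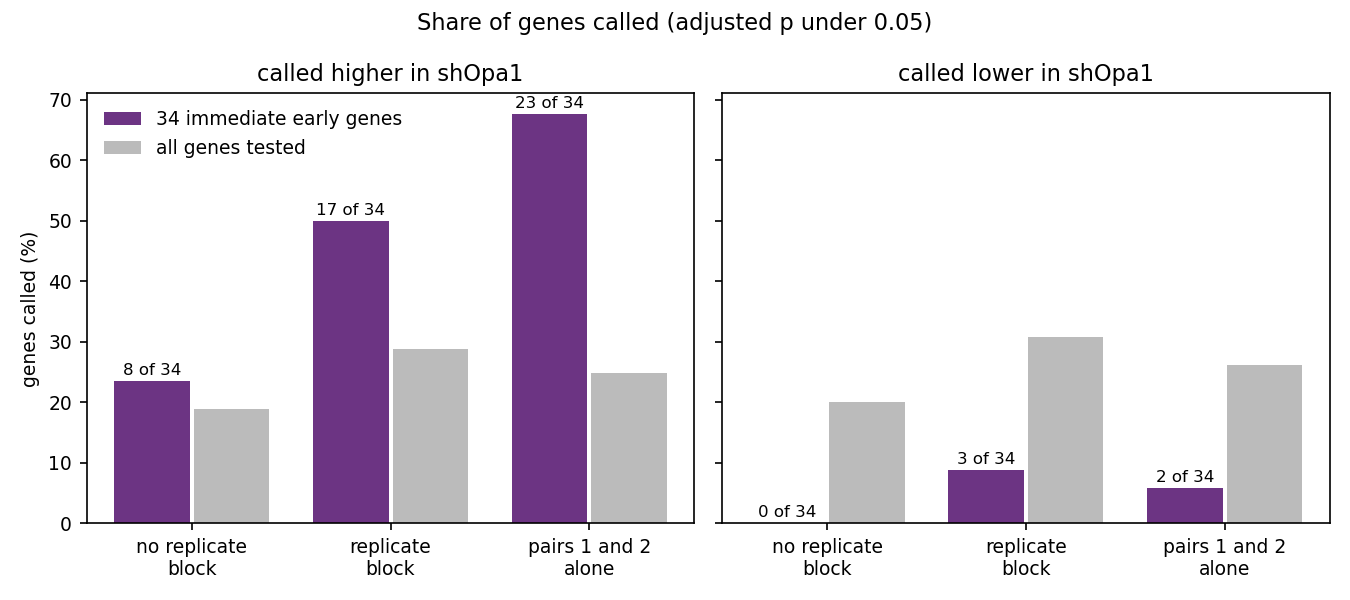
Share of genes called at an adjusted p under 0.05 (edgeR, %), for the 34 immediate early genes and for all genes tested, in 3 fits: all libraries without a block, all libraries with the replicate number as a block, and pairs 1 and 2 alone. Higher calls among the 34 numbered 8, 17 and 23, and lower calls 0, 3 and 2.

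The sum of the 34 transcripts was 1058, 920 and 829 CPM (read counts scaled by library size) in shControl 1, 2 and 3. In shOpa1 it was 1737, 1592 and 875 CPM. The first and second shOpa1 libraries were far above every control library, and the third lay within the control range. In bulk RNA, fewer cells of a type and less RNA per cell cannot be told apart. Per kilobase of gene model, the highest mean levels in shControl were those of Jund at 41.4, Dusp4 at 25.3 and Fos at 19.9 CPM per kb. The lowest were those of Fosb at 0.595, Klf4 at 0.454 and Egr2 at 0.341 CPM per kb. In shOpa1 the order at the top was Fos at 40.3, Dusp4 at 40.0 and Jund at 36.1 CPM per kb, and these 3 differed by less than the spread of Fos between its libraries.

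AP-1 is a dimer of a Fos and a Jun protein that binds enhancers of late response genes. Among its 6 subunits Fosb rose without the block, Fosl2 rose and Jund fell with it. Fosb encodes a Fos protein whose shortened splice form accumulates with repeated activity, and the gene lies at chr7:19302696-19310051. In shControl, Fosb stood at 3.23, 2.77 and 5.15 CPM, and in shOpa1 at 24.5, 19.9 and 10.1 CPM. The groups did not overlap, and the knockdown library of pair 3 was the lowest of the 3. Means were 3.72 ± 1.27 and 18.2 ± 7.38 CPM (SD, n = 3), a log2 fold change of 2.29 with a standard error of 0.390 (edgeR adjusted p = 0.00487). The log2 difference within a pair was 2.75 in pair 1, 2.65 in pair 2 and 0.90 in pair 3.

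Fos, the classical marker of recent firing, followed the pairs as well. In shControl, Fos measured 57.1, 44.3 and 39.0 CPM, and in shOpa1 it measured 130.4, 118 and 35.9 CPM. The shOpa1 library of pair 3 lay below every control, so the groups overlapped. The log2 fold change over all libraries was 1.02 ± 0.459 (standard error; edgeR adjusted p = 0.127), and over pairs 1 and 2 alone it was 1.30 ± 0.127 (adjusted p = 0.000469). The latter fit leaves out the discordant pair. Fosl2 encodes Fra-2, a Fos-related protein. In shControl, Fosl2 ran at 163, 136 and 78.2 CPM, and in shOpa1 at 289.8, 261 and 109 CPM. Every shOpa1 library exceeded its own control, while the shOpa1 library of pair 3 lay below the controls of pairs 1 and 2. Its log2 fold change was 0.80 (adjusted p = 0.177) without the block and 0.75 (adjusted p = 0.000124) with it.

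The Jun genes encode the partners of Fos proteins in the dimer, with log2 fold changes of -0.20 for Jund, -0.23 for Jun and -0.32 for Junb over all libraries. Jund, the most steadily expressed of them, measured 66.1, 67.7 and 73.2 CPM in shControl and 58.1, 67.3 and 55.3 CPM in shOpa1. It fell by 0.20 on the log2 scale with the block (edgeR adjusted p = 0.0344) and had an adjusted p of 0.125 without it and of 0.0875 in the authors' deposited table. Of its exon length 52.6% is shared with Gm11175, and the header of the counts names no strand setting, so reads of these overlapping genes cannot be told apart. Jun had log2 differences of 0.12, -0.16 and -0.79 in pairs 1, 2 and 3, and Junb 0.00, 0.20 and -1.02. Neither passed the test with or without the block (adjusted p = 0.423 and 0.332 without it), and Jun shares 7.28% of its exon length with the antisense gene Junos and Junb 7.52% with Prdx2.

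The EGR genes encode zinc finger factors that carry the immediate response on to later genes. Egr3 and Egr4 rose with the block, and without it the smallest adjusted p among the 4 was 0.34. In all 4 the control of pair 3 was the highest control. In shControl, Egr1 measured 24.3, 16.6 and 88.9 CPM, and in shOpa1 21.8, 16.4 and 51.7 CPM. Both libraries numbered 3 were the highest of their group, and pair 3 was the only pair of this gene with a log2 difference beyond -0.15, at -0.78. Its fitted log2 fold change was -0.53 ± 0.719 (standard error; edgeR adjusted p = 0.601).

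In shControl, Egr3 measured 3.77, 2.95 and 11.8 CPM, and in shOpa1 4.06, 4.38 and 19.0 CPM. Within each pair the shOpa1 library was higher, by 0.09, 0.50 and 0.66 on the log2 scale. With the block it rose by 0.50 (edgeR adjusted p = 0.00587), and without it 0.56 (0.611). Egr4 measured 3.98, 3.10 and 10.2 CPM in shControl and 7.38, 6.89 and 12.9 CPM in shOpa1. It was higher in shOpa1 in all 3 pairs, with a blocked log2 fold change of 0.73 (adjusted p = 0.00199; 0.34 without the block). Egr2 was scarce, down to 5 counts in a library, and its pair differences were 1.43, 0.78 and -0.87. Its control of pair 3, at 2.93 CPM, was the highest of the 6 libraries, beside 0.210 and 0.336 CPM in the other controls.

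NR4A genes encode orphan nuclear receptors that bind DNA without a known hormone and are induced through CREB. Nr4a1, or Nur77, lies at chr15:101254269-101274795. In shControl, Nr4a1 measured 31.1, 23.7 and 26.3 CPM, and in shOpa1 86.0, 72.4 and 33.8 CPM. The groups did not overlap, and the margin in pair 3 was small, with pair differences of 1.45, 1.59 and 0.35. The log2 fold change was 1.24 ± 0.335 (standard error; edgeR adjusted p = 0.027), and with the block it was 1.17 with an adjusted p of 0.0782. Without any 1 library other than shOpa1 3 the adjusted p was between 0.0552 and 0.0847, without shOpa1 3 it was 0.000309, and the 12 alternatives ran from 6.05e-05 to 0.142.

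Nr4a3, or NOR-1, differed between replicates more than between groups. In shControl, Nr4a3 measured 122, 87.1 and 14.9 CPM, and in shOpa1 269.7, 247 and 38.8 CPM. The libraries numbered 3 were the lowest of each group, yet the shOpa1 library was higher in every pair, by 1.14, 1.50 and 1.35. Fitted with the block, the rise was 1.34 ± 0.068 (standard error; edgeR adjusted p = 1.29e-07), and without it 1.31 ± 0.902 (adjusted p = 0.297). Nr4a2, or Nurr1, averaged 37.2 ± 13.3 CPM in control and 39.7 ± 19.2 CPM in knockdown libraries (SD, n = 3) and passed neither test.

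**Figure D2:**
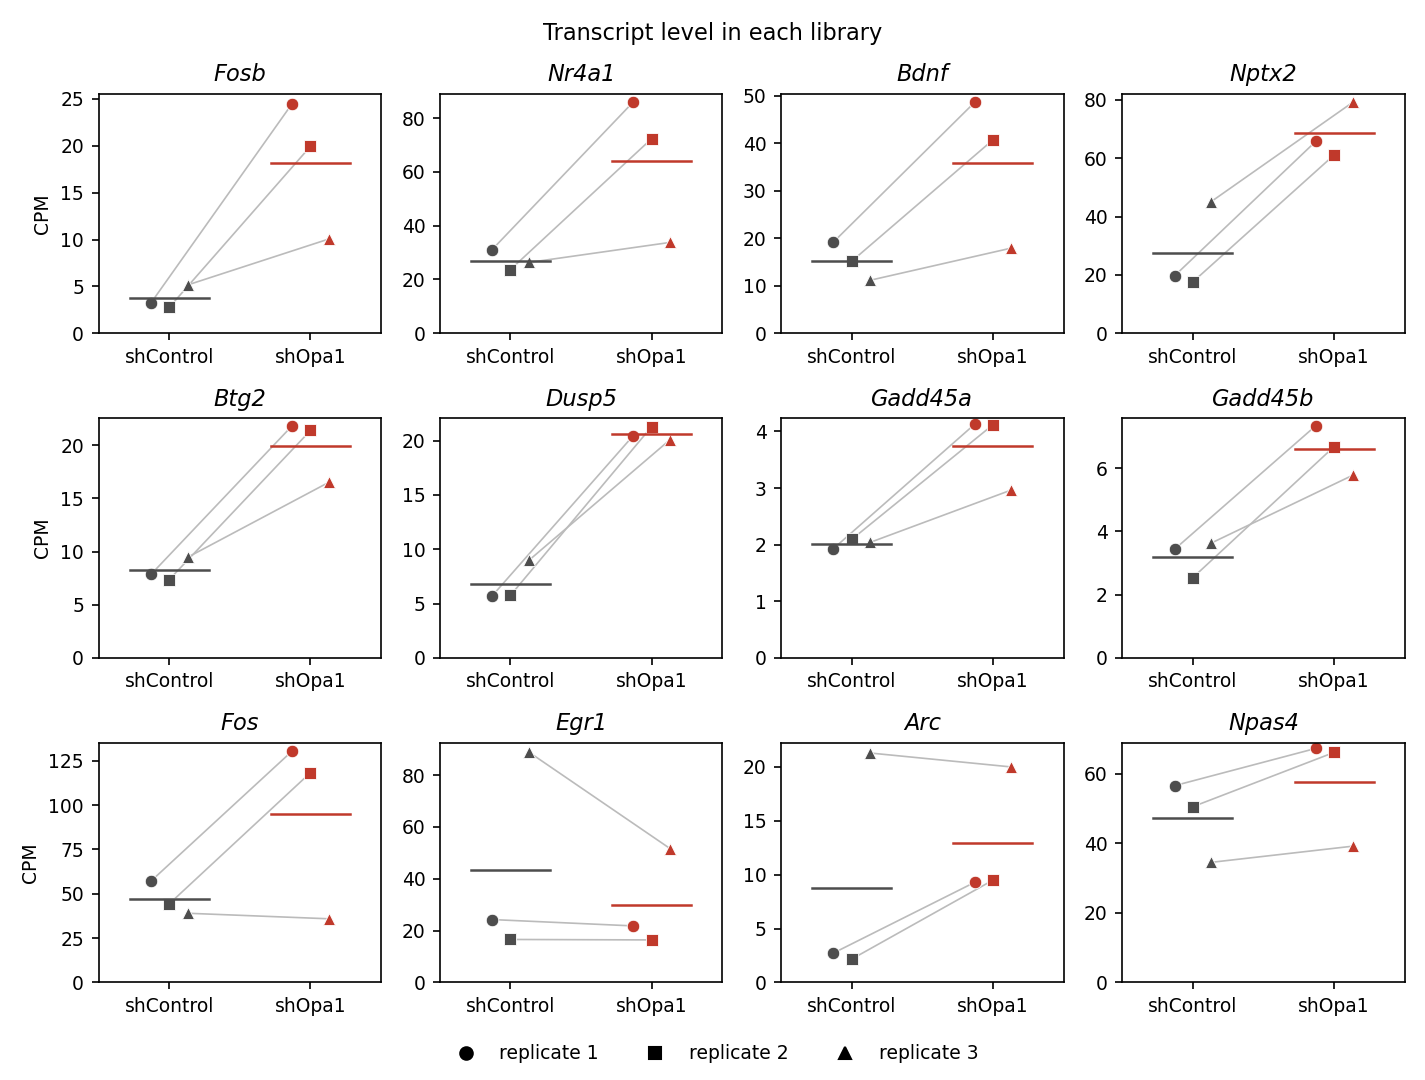
CPM in each library for the 8 genes that rose without the block and for Fos, Egr1, Arc and Npas4, with shControl on the left and shOpa1 on the right of each panel. Symbols give the replicate number, thin lines join same-numbered libraries and horizontal bars are group means; the shOpa1 library of pair 3 was the lowest of its group for Fosb (10.1 CPM) and Fos (35.9 CPM).

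Of 6 further transcription factor genes outside these families, Npas4, Klf4 and Per1 rose and Klf10 fell with the block. Npas4 encodes a neuron-specific factor induced by calcium entry that acts on inhibitory synapses. In shControl, Npas4 measured 56.6, 50.5 and 34.5 CPM, and in shOpa1 67.3, 66.1 and 39.2 CPM. The differences were small and of one sign, 0.25, 0.38 and 0.18 in the 3 pairs. The blocked log2 fold change was 0.28 ± 0.057 (standard error; edgeR adjusted p = 0.00155), and the value without the block had an adjusted p of 0.432.

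Klf4, a zinc finger factor known from stem cells that limits axon growth, was the steepest of these by fold. In shControl, Klf4 measured 1.80, 1.35 and 1.00 CPM, and in shOpa1 3.80, 3.24 and 1.65 CPM. Its log2 fold change was 1.05 with the block (edgeR adjusted p = 0.000437) and 1.07 without it (0.051). Per1, a clock gene with CREB sites, measured 85.4, 77.1 and 51.3 CPM in shControl and 118, 111 and 53.2 CPM in shOpa1. Its pair differences were 0.46, 0.52 and 0.05, and the blocked log2 fold change was 0.36 (adjusted p = 0.00682; 0.383 without the block).

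Klf10, a TGF-beta inducible repressor, went the other way. In shControl, Klf10 measured 6.71, 5.83 and 12.8 CPM, and in shOpa1 4.74, 4.76 and 10.3 CPM. It was lower in shOpa1 in all 3 pairs and fell by 0.36 on the log2 scale with the block (edgeR adjusted p = 0.0122; 0.551 without it), and the authors' deposited table gives it an adjusted p of 0.0661. Crem, whose gene also encodes the CREB repressor ICER, had pair differences of 0.67, 0.47 and -0.22 and passed neither fit over all libraries (adjusted p = 0.488 without and 0.0738 with the block), but rose by 0.60 over pairs 1 and 2 alone (0.000315). Maff, a small Maf protein, had 0.22, 0.43 and -0.40 and passed neither (0.769 and 0.436). For both genes pair 3 had the opposite sign to the other pairs.

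Among synaptic and secreted effectors, Bdnf and Nptx2 rose, Inhba fell with the block, and Arc passed over pairs 1 and 2 but not over all libraries. Bdnf encodes brain-derived neurotrophic factor, which strengthens excitatory synapses through TrkB, and lies at chr2:109674700-109727007. In shControl, Bdnf measured 19.2, 15.2 and 11.2 CPM, and in shOpa1 48.6, 40.7 and 17.9 CPM. The shOpa1 library of pair 3 lay below the control of pair 1, so the groups overlapped, but the difference was positive in all 3 pairs at 1.32, 1.40 and 0.66. The log2 fold change was 1.24 ± 0.387 (standard error; edgeR adjusted p = 0.0448), and 14.4% of its exon length is shared with Gm45346. Without any 1 library other than shOpa1 3 the adjusted p of Bdnf lay between 0.0625 and 0.126, and without shOpa1 3 it was 0.00299. Across all 12 alternatives it ran from 9.89e-05 to 0.196. With the block the log2 fold change of Bdnf was 1.18 ± 0.137 (standard error; edgeR adjusted p = 0.000304).

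Nptx2, also called Narp, is a secreted pentraxin that gathers AMPA receptors on inhibitory neurons, and its gene lies at chr5:144545902-144557478. In shControl, Nptx2 measured 19.7, 17.6 and 45.2 CPM, and in shOpa1 65.8, 61.2 and 79.1 CPM. The groups did not overlap, although the control of pair 3 was at least 2-fold above the mean of the other controls. The log2 fold change was 1.32 ± 0.363 (standard error; edgeR adjusted p = 0.0293), with pair differences of 1.71, 1.77 and 0.80. Without any 1 library other than shControl 3 the adjusted p was between 0.0635 and 0.0863, without shControl 3 it was 0.000251, and the 12 alternatives ran from 1.33e-07 to 0.165. With the block the log2 fold change of Nptx2 was 1.41 ± 0.263 (standard error; edgeR adjusted p = 0.0210).

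Arc encodes a cytoskeletal protein that removes AMPA receptors from synapses. In shControl, Arc measured 2.72, 2.17 and 21.3 CPM, and in shOpa1 9.28, 9.49 and 20.0 CPM. In pairs 1 and 2 the shOpa1 library was the higher, by 1.6 and 1.91 on the log2 scale, and in pair 3 both libraries were high and differed by -0.09. Fitted over all libraries, the difference was 0.56 ± 0.877 (standard error; edgeR adjusted p = 0.652), and over pairs 1 and 2 it was 1.95 ± 0.159 (adjusted p = 4.97e-06). The smaller p-value comes from leaving out the pair known to stand apart. In the authors' deposited table Arc had an adjusted p of 0.0478. Inhba encodes the activin A subunit, a secreted TGF-beta family ligand. In shControl, Inhba measured 15.9, 15.3 and 6.27 CPM, and in shOpa1 12.4, 11.54 and 4.43 CPM. It was lower in shOpa1 in every pair, and it fell by 0.41 on the log2 scale with the block (adjusted p = 0.00193; 0.559 without it).

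Feedback genes limit the response that induces them, and of 8 such genes Btg2 and Dusp5 rose without the block, and Dusp4, Dusp6 and Ier2 also rose with it. Dusp5 encodes a nuclear phosphatase of ERK and lies at chr19:53529109-53542431. In shControl, Dusp5 measured 5.70, 5.75 and 8.97 CPM, and in shOpa1 20.5, 21.3 and 20.1 CPM. The 3 shOpa1 libraries differed from each other by less than the controls did, and the groups were far apart. Means were 6.81 ± 1.87 and 20.6 ± 0.617 CPM (SD, n = 3), a 3.02-fold rise with an edgeR adjusted p of 0.000696. Of its exon length 22.1% is shared with AC137853.2.

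Btg2, an antiproliferative gene of the p53 and activity response, lies at chr1:134075170-134079120. In shControl, Btg2 measured 7.84, 7.36 and 9.46 CPM, and in shOpa1 21.8, 21.4 and 16.5 CPM. The groups did not overlap, with a log2 fold change of 1.27 ± 0.150 (standard error; edgeR adjusted p = 0.000798). Dusp4, another nuclear MAP kinase phosphatase, measured 86.7, 72.6 and 48.6 CPM in shControl and 129, 120.1 and 79.3 CPM in shOpa1. Its pair differences were alike, at 0.57, 0.72 and 0.70, and its blocked log2 fold change was 0.67 (adjusted p = 9.32e-07; 0.0882 without the block).

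Dusp6, a cytoplasmic phosphatase selective for ERK, measured 10.8, 9.72 and 8.68 CPM in shControl and 22.5, 18.1 and 10.1 CPM in shOpa1. Its log2 fold change was 0.75 with the block (edgeR adjusted p = 0.00298) and 0.80 without it (0.0608). Ier2 is a nuclear protein of the first wave. In shControl, Ier2 measured 6.46, 6.05 and 5.78 CPM, and in shOpa1 10.8, 10.4 and 5.44 CPM. It was raised in pairs 1 and 2 and not in pair 3, with a blocked log2 fold change of 0.50 (adjusted p = 0.0249; 0.134 without the block).

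Dusp1, Sik1 and Ier5 passed neither fit over all libraries. Dusp1, a phosphatase of p38, JNK and ERK, measured 19.5 ± 1.25 and 27.1 ± 12.3 CPM (SD, n = 3), with pair differences of 0.85, 0.60 and -0.42, and it rose over pairs 1 and 2 alone by 0.75 (edgeR adjusted p = 9.39e-05). Sik1, a kinase induced through CREB that restrains CREB coactivators, had 0.00, -0.12 and -0.50. Ier5 had -0.28, 0.14 and -0.13, so its pairs did not share a sign.

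GADD45 proteins act in DNA repair, demethylation and stress kinase signalling, and Gadd45b is known as activity-induced. Gadd45a (chr6:67035096-67037457) and Gadd45b (chr10:80930073-80932204) rose. In shControl, Gadd45a measured 1.93, 2.09 and 2.04 CPM, and in shOpa1 4.13, 4.12 and 2.97 CPM. Its groups did not overlap (log2 fold change 0.89 ± 0.191, standard error; edgeR adjusted p = 0.00939), and 19.1% of its exon length is shared with E230016M11Rik. In shControl, Gadd45b measured 3.44, 2.54 and 3.63 CPM, and in shOpa1 7.35, 6.69 and 5.78 CPM. Its groups did not overlap either, with a log2 fold change of 1.04 ± 0.184 (adjusted p = 0.00407). Gadd45g measured 10.5, 9.27 and 11.8 CPM in shControl and 21.3, 19.1 and 9.14 CPM in shOpa1, and it passed neither fit over all libraries (adjusted p = 0.138 and 0.257).

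Read pair by pair, most members were higher in the knockdown library of pairs 1 and 2, and in pair 3 their median showed no such shift. The share at least 1.5-fold higher was above that of all genes in all 3 pairs. In pair 1, 20 of the 34 genes (58.8%) were at least 1.5-fold higher against 8.56% of all genes, and 0 were that much lower against 13.1%. In pair 2, 20 (58.8%) were higher against 9.23%, and 0 lower against 14.0%. In pair 3, 9 (26.5%) were higher against 9.06%, and 4 (11.8%) were lower, namely Egr1, Egr2, Jun and Junb, against 14.3%. The 9 were Bdnf, Btg2, Dusp4, Dusp5, Egr3, Fosb, Gadd45b, Nptx2 and Nr4a3. The median log2 difference of the 34 was 0.82 in pair 1, 0.76 in pair 2 and -0.01 in pair 3, and values above 0 numbered 29, 28 and 17. A pair holds 1 library of each group, so these values have no test.

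**Figure D3:**
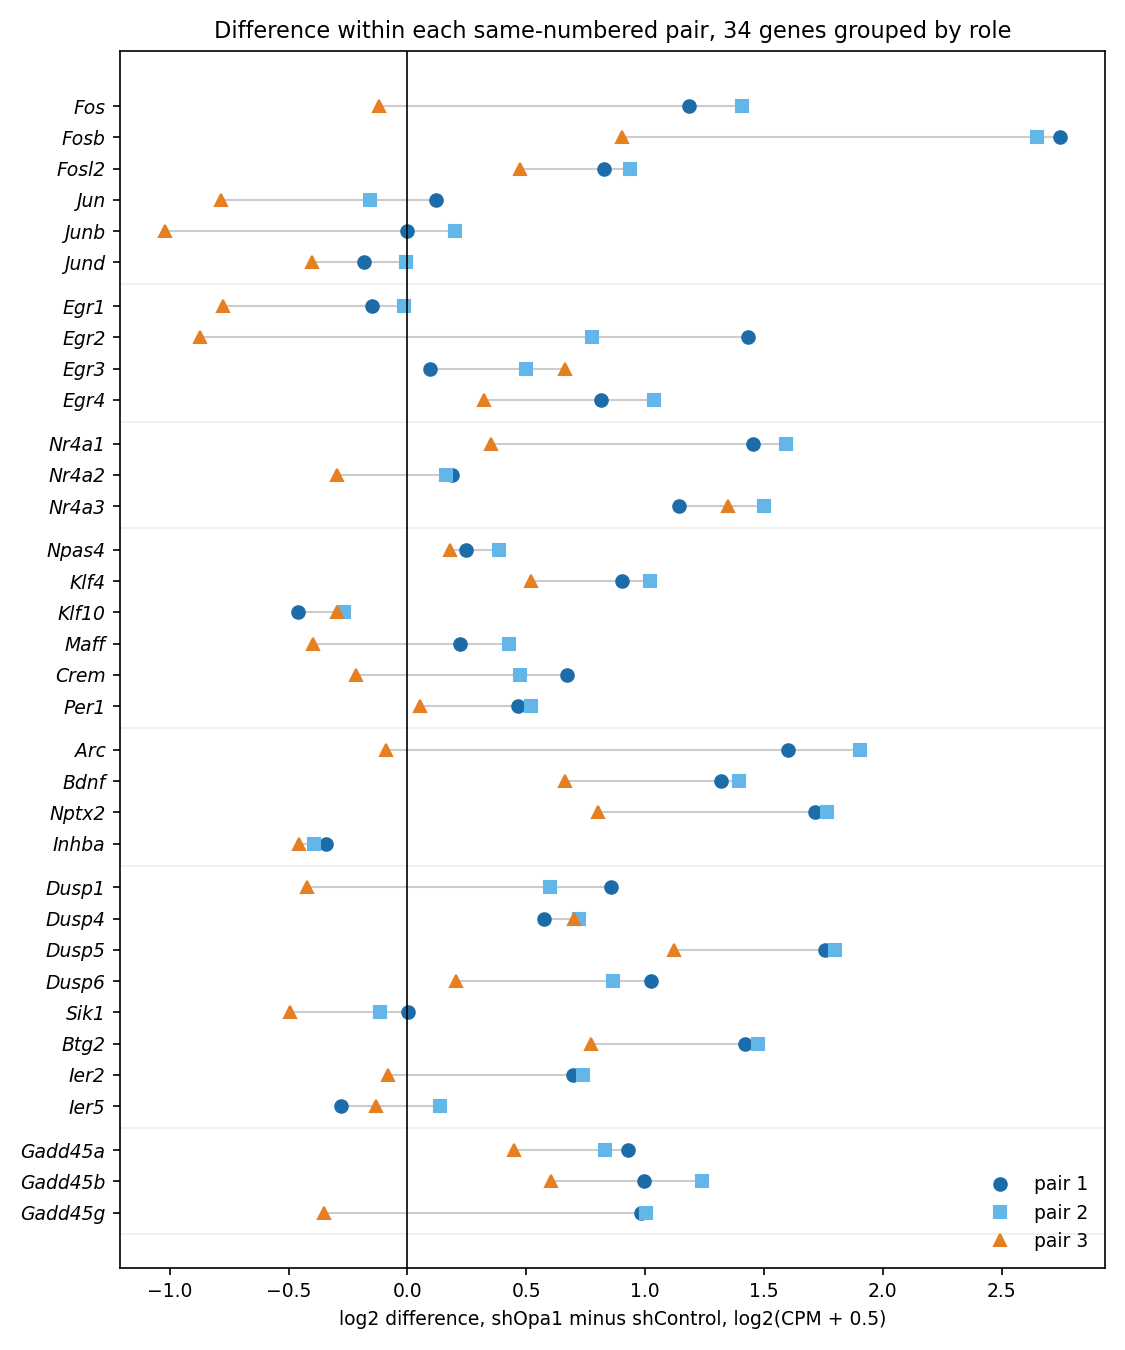
log2 difference between the shOpa1 and the shControl library of each same-numbered pair (log2 of CPM + 0.5) for the 34 genes, grouped by role, with 0 as the vertical line. The points of pair 3 lie left of those of pairs 1 and 2 for most genes, and 17 of 34 lie above 0.

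The difference between pair 3 and pairs 1 and 2 was fitted as a product term in edgeR. Pair 3 holds 1 library per group, so the fit takes its spread from pairs 1 and 2, and the split was made because the libraries numbered 3 were already known to stand apart. The calls therefore describe these libraries and give no independent test of pair 3. The product term was called for 12 of all tested genes (0.0725%), and 5 of those 12 were members. They were Arc at -2.04 (adjusted p = 0.0169), Fosb at -1.93, Gadd45g at -1.40 (both 0.0425), Nptx2 at -0.96 (0.0425) and Dusp1 at -1.18 (0.0468), on the log2 scale. For Fosb and Nptx2 the knockdown library was higher in all 3 pairs, and for Arc, Gadd45g and Dusp1 pair 3 was below 0. In all, 30 of the 34 members had a product term below 0, against 8182 of 16562 genes. This is a lower signed difference in pair 3, and not always a smaller one. Junb and Jun, for example, had pair 3 differences of -1.02 and -0.79, larger in size than in pairs 1 and 2. The number of members called changed without the filter on low counts and without 1 library of replicates 1 and 2. So did the number called over all genes, and both are given side by side in the last section.

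Levels in the libraries numbered 3 also stood apart within each group. Among controls, Arc, Egr1, Egr2, Egr3, Egr4 and Nptx2 were at least 2-fold above the mean of replicates 1 and 2, which is 6 of 34 members against 1.44% of all genes. Inhba and Nr4a3 were at least 2-fold below, 2 of 34 against 0.996%. In shOpa1, Arc, Egr1, Egr3 and Klf10 were that far above, 4 of 34 against 0.954%, and 13 were that far below, against 1.47%. Those 13 included Fos at -1.78, Fosb at -1.10, Nr4a1 at -1.21, Bdnf at -1.29 and Nr4a3 at -2.72 on the log2 scale. Egr1, Egr3 and Arc were above in both groups, and Nr4a3 and Inhba were below in both. The labels name no batch, but their sample codes number these libraries 11 and 12 and the others 3 to 6, and the name of the authors' deposited table holds the word batch. With 1 such library per group, a batch and the culture cannot be told apart.

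**Figure D4:**
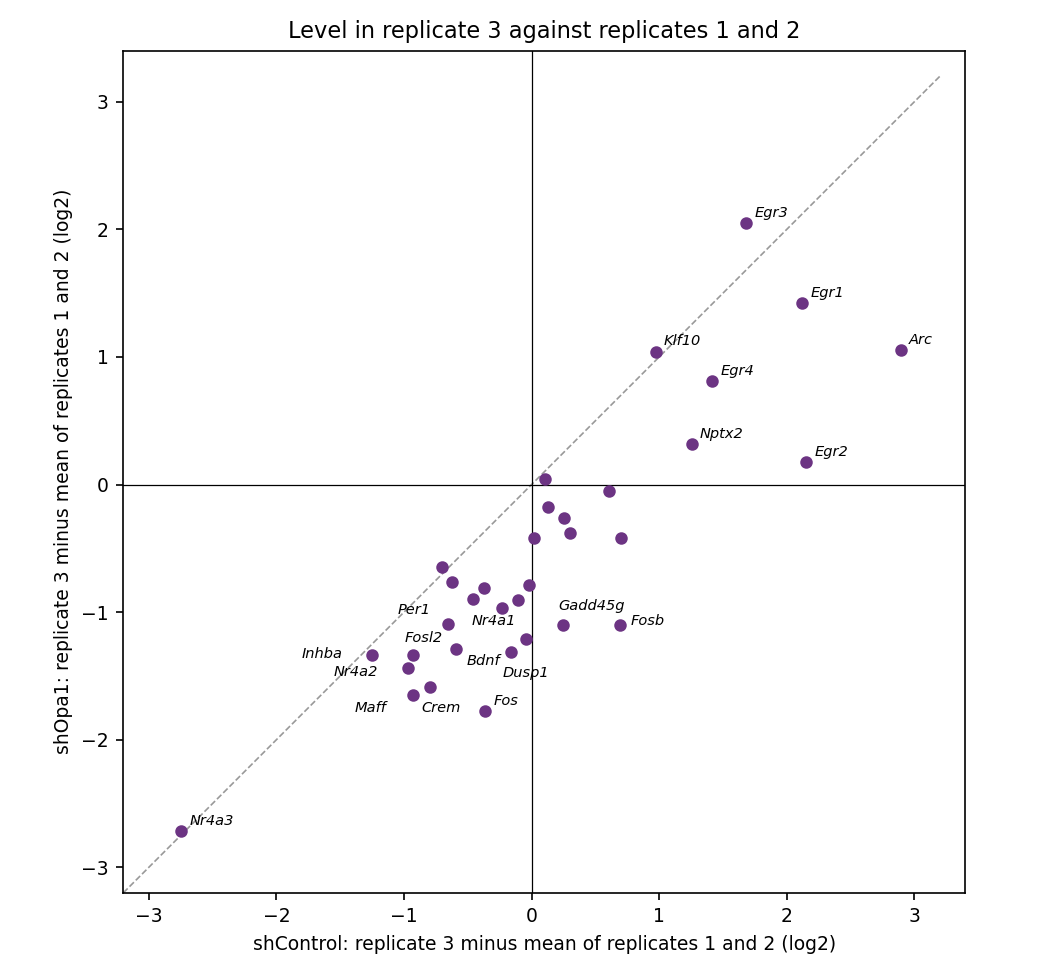
Level in the replicate 3 library minus the mean of replicates 1 and 2, as log2, in shControl (horizontal) and shOpa1 (vertical) for the 34 genes. Points on the dashed diagonal changed alike in both groups; Nr4a3 lies on it at -2.75 and -2.72, Egr3 is above it, and Arc (2.89 and 1.05) is far below it.

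Genes upstream of the members and genes of the same response moved in both directions, and those named here each had an edgeR adjusted p under 0.05 without the block. Each count is to be read beside the shares of all genes given above, 18.9% higher and 20.0% lower, or 28.8% and 30.7% under the block. Of 26 calcium and CREB pathway genes, 2 rose (7.69%) and 7 fell (26.9%), or 5 (19.2%) and 11 (42.3%) under the block, around a median log2 fold change of -0.10. The kinase Camk4, which phosphorylates CREB, fell by 0.57 on the log2 scale (edgeR adjusted p = 0.00308), and its activating kinase Camkk1 by 0.36. Camk2b, the beta subunit of CaM kinase II, fell by 0.42 and the calcium-activated cyclase Adcy1 by 0.47. The catalytic subunits of protein kinase A rose, Prkaca by 0.17 and Prkacb by 0.29.

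Of 22 MAP kinase and SRF pathway genes, 4 rose (18.2%) and 6 fell (27.3%), or 7 (31.8%) and 9 (40.9%) under the block, and the median was -0.09. The small GTPase Nras fell by 1.61 on the log2 scale, to 30.5 ± 2.16 CPM in the knockdown (SD, n = 3), and the CREB kinase Rps6ka5 (MSK1) by 1.99. The SRF cofactor Mrtfa fell by 0.70 and Mapk3, which encodes ERK1, by 0.63 on the log2 scale. The exchange factor Rasgrf1 rose by 0.67, Rps6ka2 by 0.58, and the ERK kinases Map2k1 and Map2k2 by 0.35 and 0.23.

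Of 17 MEF2 and calcineurin genes, 6 rose (35.3%) and 2 fell (11.8%), or 7 (41.2%) and 4 (23.5%) under the block, and the median was -0.03. Mef2b rose by 1.21, the calcineurin inhibitor Rcan2 by 1.14, the calcineurin subunit Ppp3cc by 0.68 and Nfatc3 by 0.52 on the log2 scale. Ppp3ca, a catalytic subunit of calcineurin, fell by 0.55 and the MEF2 repressor Hdac4 by 0.23.

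Of 39 tested genes that neuronal activity is known to induce beyond the 34, 10 rose (25.6%) and 3 fell (7.69%), or 16 (41.0%) and 5 (12.8%) under the block, around a median of 0.31. Vgf, a secreted neuropeptide precursor, rose by 0.87 on the log2 scale (edgeR adjusted p = 0.00168), with shOpa1 libraries at 592, 530.0 and 419 CPM. The ERK pathway inhibitor Spry4 rose by 1.97 on the log2 scale, Cebpb by 1.72 and Dusp14 by 0.72. Stc1 fell by 1.58, Id2 by 0.79 and Myc by 0.51. In this list 16 genes (41.0%) were at least 1.5-fold higher in pair 1, 15 (38.5%) in pair 2 and 6 (15.4%) in pair 3. The shares of all genes were 8.56%, 9.23% and 9.06%.

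**Figure D5:**
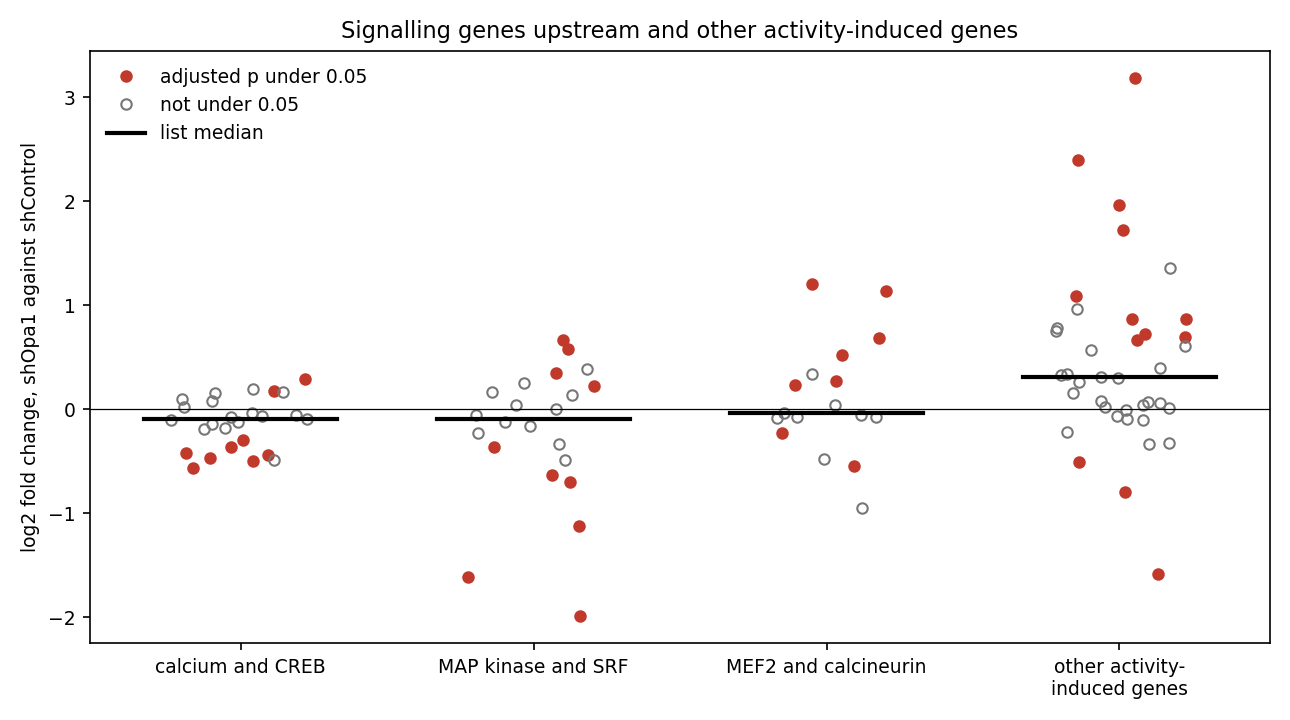
log2 fold change of shOpa1 against shControl (all 6 libraries, no block) for genes of 3 upstream pathways and for other activity-induced genes. Filled points passed an adjusted p of 0.05, open points did not, and bars are list medians, which were -0.10, -0.09, -0.03 and 0.31.

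The presence of GAAACTA and of TATTTAT was scored in the longest 3' untranslated region of each gene. GAAACTA was picked in an earlier search of these fold changes as the one whose carriers were lowest in shOpa1. It was found in 0 of the 34 members and in 9.63% of 13851 genes. Of the upstream genes named above as fallen, Adcy1, Nras, Mrtfa, Ppp3ca and Hdac4 each held 1 copy. Camk4, Camkk1, Camk2b, Rps6ka5 and Mapk3, also fallen, held 0, and so did the upstream genes named as risen. Among upstream genes not named above, Crtc3, Braf and Elk3 each held 1 copy and were not called with or without the block. Cacna1c, which fell, held 2, and Rps6ka3, which fell only with the block, held 1. The motif and the named genes were picked from the same fold changes, so their overlap is no independent finding. The part of GAAACTA in these falls was not tested. TATTTAT, a core of AU-rich elements that destabilise transcripts, was found in 15 of the 34 (44.1%) and in 31.3% of all genes, among them Fos, Fosb and Bdnf.

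Library totals ran from 24676709 to 32961580 counts, and the lowest member count in a library was 5. Opa1 itself fell 22.3-fold, with shControl libraries between 201.8 and 204.6 CPM and shOpa1 libraries between 8.50 and 10.2 CPM. The second principal component, with 25.0% of the variance, separated both libraries numbered 3 from the other 4. Summed neuron markers were 6597 to 7337 CPM in shControl and 5011 to 5480 CPM in shOpa1, with 2 of 10 called higher and 6 lower. Summed astrocyte markers were 255 to 430.3 CPM and 129 to 192 CPM, with 1 of 10 higher and 3 lower. For microglia, 7 of 8 markers were under 1 CPM in every library. Oligodendrocyte lineage markers summed to 47.1 to 75.5 and 38.4 to 54.8 CPM, and endothelial and mural markers to 4.37 to 5.60 and 4.03 to 6.85 CPM. Fibroblast markers summed to 50.6 CPM in shOpa1 1 and to between 5.10 and 20.7 CPM elsewhere, and dividing-cell markers to 9.86 CPM in shControl 3 and between 0.859 and 2.05 CPM elsewhere. The part of these differences in the member results was not tested.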

How the data were processed

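RNA was sequenced from 3 shControl and 3 shOpa1 libraries of a stranded mRNA kit, per the labels' protocols. The authors deposited raw read counts per gene, made with featureCounts 1.6.0 on Ensembl release 99 gene models of GRCm38 with no strand option, per the file headers, beside each gene model's length. The submitters' processing notes name HISAT2 and DESeq2 with no version. A further deposited table holds the authors' log2 fold changes, a score (the fold change over its error), p-values and a normalised signal, and at an adjusted p under 0.05 the authors' deposited table gives 19 of the 34 genes as higher and 1 as lower, beside 3915 and 4020 of all genes. Replicates were not pooled, and 0 columns lacked a sample.

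The counts were tested in edgeR 4.0.16 (R 4.3.3) by the robust quasi-likelihood test after TMM scaling and the filterByExpr defaults, adjusted by Benjamini-Hochberg over all 16562 genes at 0.05, with group as the only term. Standard errors are the log2 fold change over the square root of F, CPM uses TMM-scaled sizes, and pair differences use CPM + 0.5. Same-numbered libraries deviated together from their group means (correlations 0.595, 0.608 and 0.714, each library nearest its namesake), and the numbers were taken to pair the libraries. The sample codes in the labels also share a letter and run on within each number, without saying what these mark. Libraries of 1 group differed beyond sampling noise (chi-square per degree of freedom 6.11 to 30.8). The main, blocked, DESeq2 and product-term fits were also run on simulated counts. Those counts held no shift of replicate 3 common to both groups, which these libraries show, so the runs do not cover that setting. Alternatives were DESeq2 1.42.0, other scaling, no filter, the block, replicate 3 as a batch, pairs 1 and 2 alone, leaving out each library and another pseudocount.

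The 34 genes, the lists, the motifs and the tests were chosen with earlier results of these data known. All 34 are named; library values are given for those called with or without the block and for Fos, Egr1, Arc, Npas4 and Bdnf, and up to 4 pathway genes per direction were named by smallest p. Promoters are RefSeq's (GRCm38.p6), and 3' untranslated regions of at least 50 bases come from GENCODE mouse release 21 (GRCm38). The cultures and hairpin sequences behind each library are not given in the sources used here.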

Additional observations from a re-analysis of the deposited data

Results flagged for a closer look

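Arc, Fosb, Gadd45g, Dusp1 and Nptx2 were flagged by the edgeR product term, which sets the difference between shOpa1 and shControl in pair 3 against that in pairs 1 and 2. Pair 3 is 1 library per group, the fit borrows its spread from pairs 1 and 2, and replicate 3 was set apart because it was known to deviate. The values describe these libraries and give no independent test of pair 3. On the log2 scale, pair 3 minus pairs 1 and 2 was -2.04 for Arc, -1.93 for Fosb, -1.40 for Gadd45g, -1.18 for Dusp1 and -0.96 for Nptx2. For Arc the control library of pair 3 stood at 21.3 CPM beside 2.72 and 2.17 CPM in the other controls. For Fosb, Gadd45g and Dusp1 the shOpa1 library of pair 3 was the lowest of its group, at 10.1, 9.14 and 13.3 CPM. For Nptx2 the control of pair 3, at 45.2 CPM, was the highest control. Groups of 3 libraries were not searched for single outlying libraries.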

How the results depend on the processing

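Fosb, Btg2, Dusp5, Gadd45a and Gadd45b passed the threshold under all 12 alternatives run, while Bdnf, Nptx2 and Nr4a1 passed in 6, 6 and 4 of them. The number of members called higher was 17 with the replicate block (28.8% of all genes), 17 with replicate 3 as a second batch (27.3%) and 23 over pairs 1 and 2 alone (24.8%). It was 5 to 17 when 1 library was left out, against 12.8% to 18.7% of all genes. Members called lower numbered 3, 2 and 2 in the first 3 of these, and DESeq2 with the block called 1 lower. With the block 4770 of all genes were higher and 5081 lower. The pathway lists then gave 5 higher and 11 lower for calcium and CREB, and 7 higher and 9 lower for MAP kinase and SRF. They gave 7 higher and 4 lower for MEF2 and calcineurin, and 16 higher and 5 lower for other activity-induced genes. Nr4a1 lost its call under the block. The difference of pair 3 from pairs 1 and 2 was called for 37 genes and 8 members in DESeq2, for 336 and 20 without the filter on low counts, and for 4 to 72 genes and 2 to 9 members without 1 library of replicates 1 and 2; it has no value without a library of replicate 3. Junb turned to 0.10 over pairs 1 and 2. When 1 library was left out the log2 fold change ran from -1.19 to 0.55 for Egr1, -0.40 to 2.15 for Egr2, -0.56 to 1.45 for Egr3, -0.22 to 0.44 for Nr4a2, -0.83 to 0.075 for Klf10, -0.10 to 0.63 for Maff and -0.35 to 0.058 for Sik1. The cause was not tested. Egr2 rests on as few as 5 counts in a library, and pair 3 on 1 library a group.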
